A study of Mus musculus with 12 samples.

Results

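Promyelocytes and myelocytes are successive stages of granulopoiesis, and this comparison concerns the miRNAs of their whole cell RNA. Both populations were sorted by flow cytometry from bone marrow of C57BL/6 mice, after staining with lineage antibodies and with antibodies to Gr-1, cKit, CD34 and CD16/32. The series holds 12 samples, 1 for each of 3 RNAs (whole cell, cytoplasmic and nuclear) at each of 4 stages (LSK stem/progenitor cells, promyelocytes, myelocytes and granulocytes), each of 100 ng of RNA. How many mice entered a sample is not given in the sources used here, and no group carried a genetic change or a treatment. Each RNA was read on 2 TaqMan low-density array cards, A and B, in which each assay is a well for 1 mature miRNA. The CT counts the cycles until the fluorescence of that well reaches a threshold, a lower CT means more template, and an undetermined well is listed at 40.

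The deposited table numbers its 593 assays without naming them. Names were given to 269 assays by matching their CT values, or differences between them, to those printed with miRNA names by the study. The 112 named miRNAs with a CT under 30 in promyelocytes or in myelocytes are described here. Of these, 89 were under 30 in both samples, 15 in myelocytes only and 8 in promyelocytes only, and none was undetermined in either. The 15 and the 8 passed the limit through the stage in which their CT was lower, so their difference was partly fixed by the choice. Just inside the limit lay miR-872*, with a lowest CT of 29.97, and miR-30a*, with 29.96. Just outside it lay miR-124, with 30.01, and miR-130a, with 30.10. MiR-124, and miR-696 at 30.115, were read in promyelocytes and undetermined in myelocytes. At a slightly higher limit both would have the lowest changes.

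A mature miRNA is a short RNA that guides Argonaute proteins to complementary sites, mostly in the 3′ untranslated regions of mRNAs, and lowers the output of those mRNAs. Pairing rests chiefly on the seed, bases 2 to 8, so miRNAs with a shared seed form families with overlapping targets, and many are cut from transcripts that carry several hairpins. Promyelocytes divide and fill their first granules, myelocytes are the last stage of this lineage that divides, and miR-223 is the best known miRNA of granulocytes.

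The sequences below are those the results turn on most: 6 miRNAs of 1 seed family that lay on opposite sides of no change, a family whose members were all higher in myelocytes, and single miRNAs with large differences or high levels. A mature sequence was found in RefSeq (GRCm38.p6) for 91 of the 112 miRNAs. Each is written 5′ to 3′ with the seed in capitals. The miR-17 seed family comes first, members of the miR-17-92 and miR-106a-363 clusters before those of miR-106b-25.
miR-17: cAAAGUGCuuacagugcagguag
miR-20a: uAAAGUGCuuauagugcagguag
miR-106a: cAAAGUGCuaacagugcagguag
miR-20b: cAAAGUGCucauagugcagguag
miR-106b: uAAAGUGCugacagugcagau
miR-93: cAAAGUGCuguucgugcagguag
Next are 5 members of the miR-15/16 seed family.
miR-15a: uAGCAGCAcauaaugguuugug
miR-15b: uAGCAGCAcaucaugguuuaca
miR-16: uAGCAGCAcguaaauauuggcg
miR-195: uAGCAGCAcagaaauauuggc
miR-322: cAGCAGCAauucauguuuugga
The pair miR-27a and miR-27b share a seed, as do miR-25 and miR-92a, and each pair also lay on both sides of no change with the 3 assays named below as the scale.
miR-27a: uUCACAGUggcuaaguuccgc
miR-27b: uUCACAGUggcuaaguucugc
miR-25: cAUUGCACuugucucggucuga
miR-92a: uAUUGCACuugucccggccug
Last are single miRNAs with large differences or the highest level.
miR-139-5p: uCUACAGUgcacgugucuccag
miR-135a: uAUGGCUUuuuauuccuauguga
miR-223: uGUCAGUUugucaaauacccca
miR-146a: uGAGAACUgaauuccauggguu
miR-155: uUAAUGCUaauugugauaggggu
miR-196b: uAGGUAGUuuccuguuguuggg
miR-494: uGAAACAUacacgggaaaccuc

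More miRNAs were higher than lower in myelocytes in whole cell RNA scaled to the 3 assays described next, but not under each other scaling nor on the same scale in cytoplasmic RNA. Changes are log2 values, myelocytes over promyelocytes, taken as the CT difference after a shift by the mean difference of the last 3 assays of card B, which moved by 0.07, 0.097 and -0.202 cycles. At a limit of 2-fold, 47 of the 112 miRNAs were higher in myelocytes, 14 were lower and 51 lay between. Among all 122 assays under 30 in either sample, named or not, 38.5% were higher and 12.3% lower by that limit, a background that contains the 112 themselves and all 47 of its higher assays among them. Over the 236 assays under 40 in both samples these shares were 36.9% and 16.5%. The median change was 0.75, or 1.68-fold, with quartiles of -0.54 and 1.81. Among the 89 miRNAs under 30 in both samples, 32 were higher and 9 were lower, and the median was 0.60. Each stage is 1 sample, so the differences cannot be set against a spread between replicates and were not tested. Fewer copies per cell and fewer cells of a type cannot be told apart in bulk RNA.

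The balance of higher and lower miRNAs depended on the scaling and on the card. Scaling to the mean of 73 named assays under 30 in all 4 stages lowered every change by 0.52 and gave 33 higher and 29 lower, so that 53.2% of the miRNAs past the limit were higher against 77.0% with the 3 assays. Centring each card on its own median gave 29 higher and 32 lower, or 47.5%. Before centring, 42 of the 83 miRNAs on card A were higher and 7 lower, with a median of 1.06, while 5 of the 29 on card B were higher and 7 lower, with a median of -0.07. In cytoplasmic RNA, without scaling, the medians were 1.55 on card A and 0.54 on card B. A pair of unnamed assays at the end of card A had whole cell changes of 0.09 and 0.05. The order of the miRNAs on a card is the same under each of these scalings, and the families below are described against the median of the 112 as well as against 0.

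**Figure D1:**
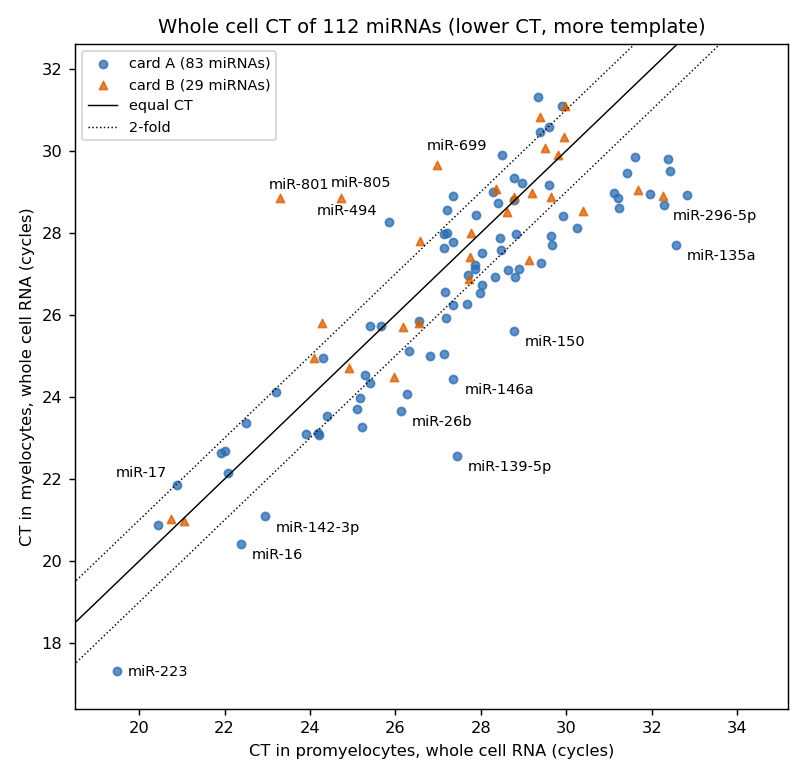
CT in promyelocytes (x axis) against CT in myelocytes (y axis), in cycles, for the 112 miRNAs in whole cell RNA, with card A as circles and card B as triangles. The solid line marks equal CT and the dotted lines a 2-fold difference; miR-223 is at the lower left with the lowest CT in both samples, and miR-801 and miR-805 stand furthest above the line.

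Several of the highest levels were shared by both stages. MiR-223, which restrains neutrophil production and activation, had the lowest CT in both, 19.48 in promyelocytes and 17.33 in myelocytes, and so was 4.47-fold higher in myelocytes. It was followed in promyelocytes by miR-19b at 20.44, miR-709 at 20.75 and miR-17 at 20.90. In myelocytes the next were miR-16 at 20.41, miR-19b at 20.87 and miR-720 at 20.97. Of the 33 miRNAs with a CT under 25 in either sample, 15 were higher in myelocytes and 3 lower, with a median change of 0.83, against 32 higher and 11 lower of the other 79, with a median of 0.71. The CT values of different assays compare assays, not copy numbers, since each well has its own primers.

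The furthest rise belonged to miR-139-5p, encoded in an intron of the phosphodiesterase gene Pde2a on chromosome 7. Its CT was 27.43 in promyelocytes and 22.56 in myelocytes, a 29.6-fold difference, and its cytoplasmic CT was 27.96 and 22.52. It thus passed from rank 52 of 112 by CT to rank 9. MiR-135a had a CT of 32.57 and 27.69, a change of 4.88. MiR-296-5p followed with 32.83 and 28.92, a change of 3.92. Next came miR-135b, a relative of miR-135a, with 32.28 and 28.69, a change of 3.60, and miR-22, a miRNA linked to myeloid and erythroid maturation, with 32.26 and 28.88. In 7 of the 10 miRNAs with the highest changes the promyelocyte CT was 30 or more, where a single well is least precise. The exceptions were miR-139-5p, miR-150 and miR-146a.

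MiR-150 and miR-146a were low in promyelocytes relative to the stages on either side. From LSK cells to granulocytes, the CT of miR-150, abundant in mature lymphocytes, was 25.13, then 28.78, 25.60 and 25.84. A like dip was seen for miR-146a, a brake on NF-kappaB signalling, with 25.32, 27.36, 24.43 and 25.93. MiR-31 had 28.72, 32.44, 29.50 and 34.61, so that its myelocyte level lay above both neighbours. Of the 47 miRNAs higher in myelocytes, 17 had a raw CT in promyelocytes above that of LSK cells, and in these 3 alone the promyelocyte CT exceeded both the LSK and the myelocyte CT by 2 cycles or more. The granulocyte CT of the 47 was below the myelocyte CT in 38. That was also so for most of the 51 miRNAs within 2-fold and for 7 of the 14 lower ones, so it was not particular to the 47. The lowest raw CT of the 47 was in granulocytes for 38, in myelocytes for 7 and in LSK cells for 2. These stage comparisons share the myelocyte or promyelocyte sample.

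**Figure D2:**
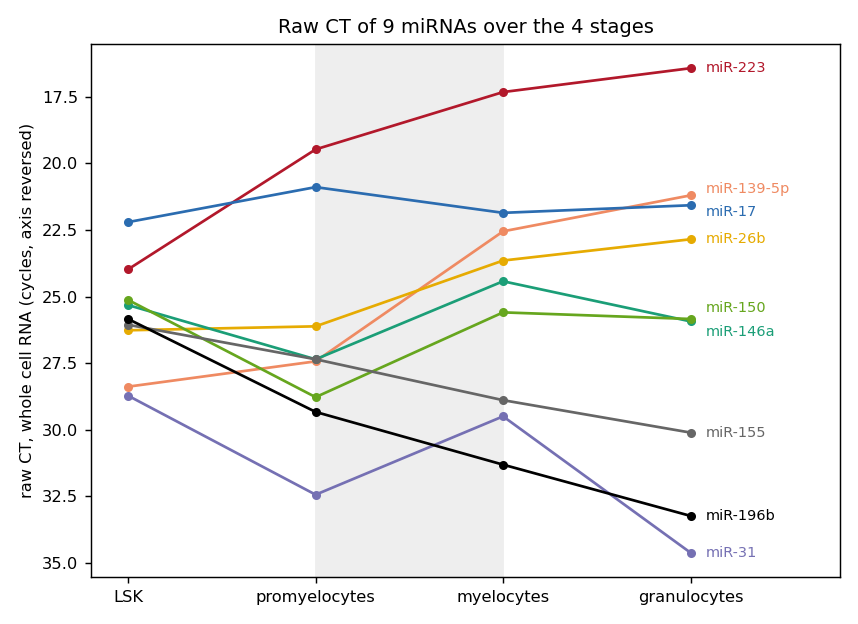
Raw CT in whole cell RNA (y axis, cycles, reversed so that more template is higher) at the 4 stages (x axis) for 9 miRNAs, 1 sample per stage, with the promyelocyte to myelocyte interval shaded. MiR-150, miR-146a and miR-31 dip in promyelocytes, miR-223, miR-26b and miR-139-5p are highest in granulocytes, and miR-155 and miR-196b are lower at each later stage.

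Other miRNAs known from myeloid cells included several that were higher in myelocytes. Of 11 such miRNAs 9 were measured under the limit, of which 5 were higher by 2-fold and 1 lower, beside 38.5% and 12.3% of all assays under the limit. Their median change was 1.44, which became 0.93 with the mean scaling and 0.61 with each card centred. The arms of miR-142, a hairpin confined to blood cells, changed together: miR-142-3p had a CT of 22.94 and 21.10, and miR-142-5p 30.26 and 28.12, changes of 1.86 and 2.15. MiR-27a was higher by 1.44. MiR-29a and miR-21 stayed within 2-fold, with changes of 0.88 and 0.60. The 2 members below 0 were miR-27a*, with a change of -0.07, and miR-155, an inducible regulator of inflammatory responses. MiR-155 had a CT of 27.36 in promyelocytes and 28.89 in myelocytes, a change of -1.52. Its cytoplasmic CT was 27.99 and 29.49.

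The miR-15/16 seed family, which targets cell cycle genes such as those of D-type cyclins, was higher in myelocytes for each of its 5 measured members. All 5 passed 2-fold with the 3 assays as the scale, beside 38.5% of all assays under the limit. MiR-16 had a CT of 22.39 in promyelocytes and 20.41 in myelocytes, a change of 2.0. MiR-15b had 26.28 and 24.08, miR-15a 31.24 and 28.61, miR-322 29.40 and 27.25, and miR-195 27.19 and 25.92. The changes ran from 1.27 to 2.65 with a median of 2.16, above the median of all 112 in each case, and 4 of the 5 passed 2-fold under each of the other scalings. Each of the 5 was also above 0 with the mean scaling and with each card centred, and above the member median in cytoplasmic RNA. The sixth member on the list, miR-497, was undetermined in both samples. From the X-linked hairpins that also give miR-322, miR-322* and miR-503 were higher too, by 2.65 and 3.03.

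Several other families had medians above the 0.75 of the 112 miRNAs. The miR-26 family, whose targets include the methyltransferase Ezh2, had CT values of 25.21 and 23.27 for miR-26a and 26.12 and 23.65 for miR-26b, changes of 1.95 and 2.48. MiR-192 and miR-194, which can be cut from a common transcript, changed by 1.73 and 2.61. The arms miR-532-5p and miR-532-3p, from the Clcn5 intron cluster, changed by 1.89 and 1.98, while its other 4 named miRNAs were above a CT of 30 in both samples and had no lower CT in myelocytes. Among these 4, miR-188-5p had 31.996 and 32.34, miR-362-3p 33.76 and 33.79, miR-501-5p 34.16 and 34.44, and miR-500 37.45 before it was undetermined in myelocytes. All 5 members of the miR-30 family were above 0, from 0.71 for miR-30e to 1.42 for miR-30b, and 3 of them passed 2-fold. Of all 112 miRNAs 69 were above 0, and 38.5% of all assays under the limit were higher by 2-fold. In the miR-29 family miR-29c changed by 1.42 and miR-29a by 0.88. No member of the miR-30 or miR-29 family passed 2-fold with the mean scaling or with each card centred, where the medians were 0.62 and 0.30 for miR-30 and 0.63 and 0.32 for miR-29. The other pairs named here kept both members past 2-fold under those scalings, apart from miR-192 with each card centred.

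The let-7 family, which opposes proliferation in many tissues, lay near no change with the 3 assays as the scale. Its 6 measured members had changes from -0.54 for let-7c to 0.74 for let-7g, with a median of -0.18, and none reached 2-fold. With the mean scaling the median was -0.69 and 1 member was lower by 2-fold, and with each card centred these were -1.01 and 3. The CT of let-7e, for example, was 25.65 in promyelocytes and 25.72 in myelocytes. All 6 lay below the median of the 112 miRNAs. MiR-221 and miR-222, which target Kit mRNA, changed by -0.83 and -0.64. MiR-101a and miR-101b, which like miR-26 target Ezh2, changed by -0.96 and -1.21. All 4 of these were lower by 2-fold under both other scalings.

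**Figure D3:**
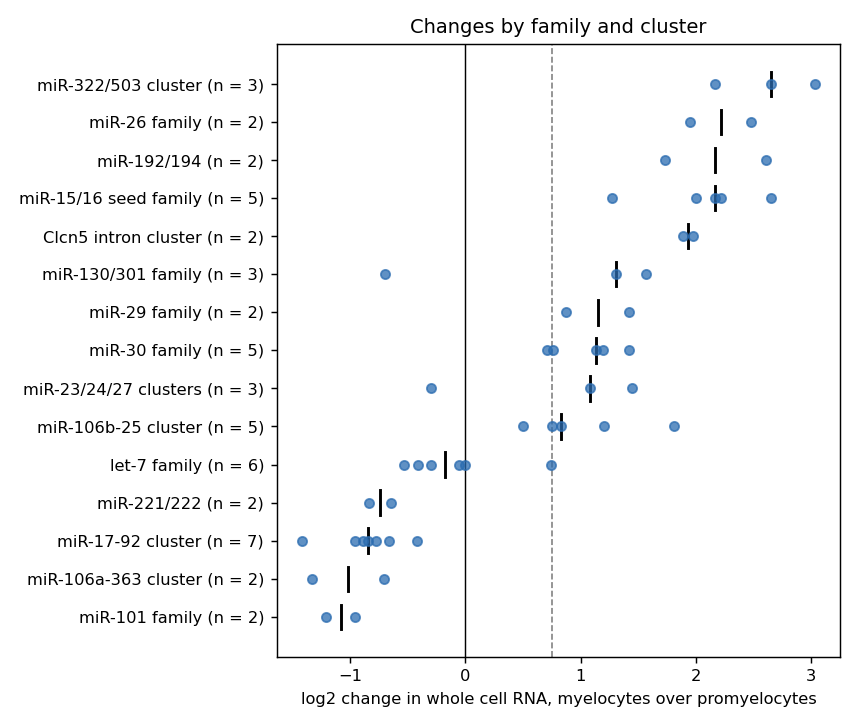
Log2 change in whole cell RNA, myelocytes over promyelocytes (x axis), of each miRNA (points) in 15 families and clusters (rows), with n the number of miRNAs under the CT limit, ticks at the median of each row and a dashed line at the median of the 112 miRNAs. Every measured member of the miR-15/16 family is above 1 and every member of the miR-17-92 cluster is below 0.

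The related clusters miR-17-92 and miR-106b-25 lay on opposite sides of no change in whole cell RNA scaled to the 3 assays. Both are descended from 1 ancestral cluster, and miR-17-92 is an oncogenic cluster that drives proliferation. By RefSeq coordinates (GRCm38.p6), the 6 hairpins of miR-17-92 span chr14:115043671-115044506 on the plus strand. The 6 hairpins of miR-106a-363 lie at chrX:52741693-52742567 and the 3 of miR-106b-25 at chr5:138165321-138165818, both on the minus strand, the last within the gene of the replication factor Mcm7.

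All 7 measured members of miR-17-92 were lower in myelocytes. The mature miR-19b and miR-92a are also encoded in miR-106a-363, and their assays do not tell the 2 clusters apart. MiR-17 had a CT of 20.90 in promyelocytes and 21.86 in myelocytes, miR-20a 22.02 and 22.69, and miR-18a 27.20 and 27.99. The changes of miR-19a, miR-19b and miR-92a were -0.85, -0.42 and -0.89. Only miR-20a* passed 2-fold, with a change of -1.41, and the median of the 7 was -0.85. With the mean scaling 6 of the 7 passed 2-fold, with a median of -1.37, and with each card centred all 7 did, with a median of -1.60. The 2 measured members of miR-106a-363 were lower as well, with changes of -0.70 for miR-106a and -1.33 for miR-20b. By contrast all 5 measured miRNAs of miR-106b-25 were above 0: miR-106b* changed by 1.81, miR-106b by 1.20, miR-93 by 0.83, miR-25 by 0.75 and miR-93* by 0.50. The 2 groups of values did not overlap, and the medians of miR-106b-25 and miR-17-92 differed by 1.68. Among all 112 miRNAs, 69 were above 0 and 43 below.

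A scaling shifts all miRNAs of a card alike, so differences within a card cannot change. The clusters stayed apart under each scaling, whereas the position of 0 moved. With the mean scaling 4 of the 5 miRNAs of miR-106b-25 were above 0, and with each card centred 3 were. No member of miR-17-92 could be above 0 under either, since both scalings lowered every change. Centred by card, the medians differed by 1.98. In cytoplasmic RNA the medians differed by 1.0, all 7 members of miR-17-92 lay below the median of the 112 and 2 of the 5 of miR-106b-25 lay above it. Scaled to the 3 assays, none of the 12 was above 0 in cytoplasmic RNA. The whole cell median of miR-106b-25, 0.83, was near the 0.75 of the 112 miRNAs, and that of miR-17-92 was on the other side of 0.

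**Figure D4:**
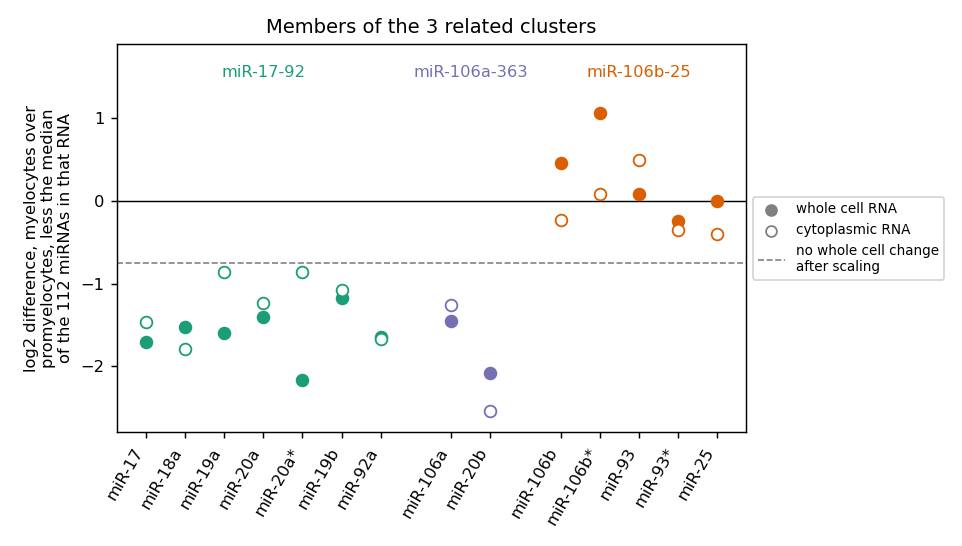
Log2 difference between myelocytes and promyelocytes less the median of the 112 miRNAs in the same RNA (y axis), for 14 miRNAs of 3 related clusters, with whole cell RNA as filled and cytoplasmic RNA as open circles, 1 sample each per stage. In both RNAs the members of miR-17-92 and miR-106a-363 lie below 0, and those of miR-106b-25 lie higher, from -0.25 to 1.06 in whole cell RNA and from -0.40 to 0.49 in cytoplasmic RNA; the dashed line is no whole cell change after scaling.

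A shared seed did not always go with a shared sign of change. Of 12 seeds found in 2 or more miRNAs, 6 had members on both sides of 0, and 7 had members more than 1 apart. The first count was 6, of the same seeds, with the mean scaling. It was 5 with each card centred, where the let-7 seed and that of miR-25 and miR-92a lay wholly below 0 and the GUAAACA seed of miR-30 came to lie on both sides, with miR-30e at -0.12. The AAAGUGC seed printed above ranged from -1.33 for miR-20b to 1.20 for miR-106b. With the 3 assays as the scale, it was the only seed with miRNAs past 2-fold in both directions. On that scale no miRNA passed 2-fold within the let-7 seed, that of miR-25 and miR-92a, or that of miR-30a* and miR-30e*. MiR-301a and miR-130b, which share AGUGCAA, changed by 1.56 and -0.70. Within the let-7 seed only let-7g was above 0, and with each card centred none was.

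Some of the pairs that differed in change were nearly identical in sequence. MiR-27a and miR-27b differ at 1 base, C19U, counted from the 5′ end of miR-27a, and had CT values of 27.97 and 26.54 against 28.41 and 28.72, changes of 1.44 and -0.30. MiR-30a* and miR-30e* differ by G18A and changed by -0.35 and 0.86. MiR-17 and miR-106a differ by U10A and changed alike, by -0.95 and -0.70. Whether the assays of such pairs cross-react was not tested here. Over the 91 miRNAs with a sequence, the percent of G and C had a Spearman coefficient of 0.05 with the change, a description across miRNAs that share their 2 libraries.

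The lowest changes were led by entries that the study set apart as removed from miRBase. The whole cell CT of miR-801 was 23.30 and 28.85, a change of -5.54, but its cytoplasmic CT was 25.97 and 25.94. MiR-805 had 24.73 and 28.85, a change of -4.11, and 25.24 and 28.60 in cytoplasmic RNA. MiR-699 had 26.98 and 29.65, against 26.14 and 26.17 in cytoplasmic RNA. Without scaling, miR-805 alone of these 3 was lower by 2-fold in cytoplasmic RNA too, whereas scaled to the 3 assays, which themselves moved by a mean of 1.68 there, the cytoplasmic differences of miR-801 and miR-699 were -1.64 and -1.71. The remaining entry of this kind, miR-720, had 21.06 and 20.97.

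Among entries not set apart, miR-494 and miR-196b had the lowest changes. MiR-494, from the imprinted Dlk1-Dio3 locus, had a whole cell CT of 25.85 and 28.26 but a cytoplasmic CT of 29.99 and 28.44, an unscaled difference of 1.55. Scaled to the 3 assays in both RNAs its cytoplasmic difference was -0.12. MiR-196b, encoded among the Hoxa genes and linked to progenitors, had a CT of 25.85, 29.33, 31.31 and 33.23 at the 4 stages in order. Its cytoplasmic CT was 29.38 in promyelocytes and 33.65 in myelocytes, the same direction with a larger step. MiR-378 changed by -1.51, miR-320 by -1.38, miR-467a by -1.19, miR-872* by -1.10 and miR-203 by -1.05. Of the 14 lower miRNAs, the lowest raw CT over the 4 stages was in promyelocytes for 8, in LSK cells for 5 and in granulocytes for 1.

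Of 12 miRNAs linked to stem and progenitor cells, 5 were measured under the limit, and their median change was -0.48. By 2-fold, 1 was higher and 1 lower, beside 38.5% and 12.3% of all assays under the limit. The median was -0.99 with the mean scaling and -1.31 with each card centred, where 2 and 3 were lower. MiR-126-3p and miR-126-5p changed by -0.48 and -0.55. MiR-125b-5p, above the limit, had a CT of 30.91 and 31.08. MiR-10b went the other way, with a CT of 31.13 and 28.96, a change of 2.18.

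The cytoplasmic RNA of the same stages gave a second reading of most changes. Its CT differences had no scaling shared with whole cell RNA: the 3 assays of card B themselves differed by 1.73, 1.72 and 1.57 between the cytoplasmic samples, and the median of the 112 miRNAs by 1.14. Each comparison was therefore centred on its own median, and 104 of the 112 miRNAs, or 92.9%, then lay on the same side in both. Pearson's r across the 112 miRNAs was 0.84 and Spearman's rho 0.90, as a description of assays read in 1 sample per stage of each RNA. Whether both RNAs came from the same cell sorts is not given. Without centring, each of the 47 higher miRNAs had a cytoplasmic difference above 0 and 45 had at least 1, where 47.8% of all assays detected in both samples did. Scaled to the 3 assays, 40 of the 47 were above 0 and 18 at least 1. On that scale the balance over the 112 miRNAs was the reverse of that in whole cell RNA, with 18 higher by 2-fold, 44 lower and a median of -0.53. Of the 14 lower miRNAs, 10 were below 0 and 4 at most -1 without centring, where 14.2% of all assays were, and all 14 were below 0 after scaling to the 3 assays.

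The 2 RNAs differed by more than 1 after centring for 20 miRNAs. Beside miR-801, miR-494, miR-699 and miR-196b these included miR-296-5p, with a cytoplasmic difference of 1.73 against a whole cell change of 3.92, and miR-200c, with 5.02 against 2.39. MiR-192 and miR-10b had larger cytoplasmic differences too, 3.59 and 4.39. In nuclear RNA 45 of the miRNAs were under a CT of 30 in either sample, and 38 of them lay on the same side of the median as in whole cell RNA. MiR-139-5p had a nuclear CT of 31.10 in promyelocytes and 26.79 in myelocytes, and miR-223 23.75 and 22.29. MiR-27a was an exception, with 29.27 and 30.25.

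**Figure D5:**
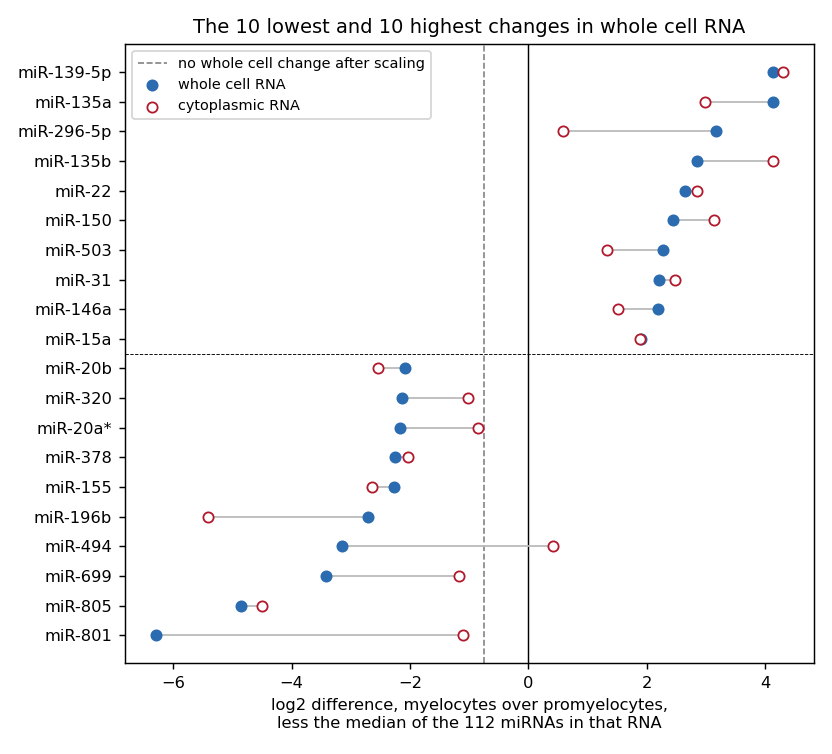
Log2 difference between myelocytes and promyelocytes less the median of the 112 miRNAs in the same RNA (x axis), for the 10 miRNAs with the lowest and the 10 with the highest whole cell change (rows), in whole cell RNA (filled) and cytoplasmic RNA (open), 1 sample each per stage. The upper 10 are above 0 in both RNAs, and miR-494 alone of the lower 10 is above 0 in cytoplasmic RNA.

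Assays for both arms of a hairpin were found in 18 cases. In 14 pairs the arms changed in the same direction, and in 11 they were within 1 of each other. MiR-340-5p and miR-340-3p changed by 1.82 and 1.80, with CT values of 26.80 and 24.99 and of 28.90 and 27.11. The widest gap was at miR-135a, with 4.88 against 0.35 for miR-135a*, whose CT was 27.75 and 27.41. Mature miR-135a comes from 2 hairpins and miR-135a* from 1 of them, and the same holds for miR-24 and miR-24-2*, so the assays of these 2 pairs do not read the arms of a single hairpin. The 4 pairs with opposite signs were those of miR-27a, miR-30a, miR-425 and miR-467a. In 14 of the 18 pairs the arms were on different cards, these 4 and miR-135a included, and the part of the card in these gaps was not tested.

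The proteins used for sorting were not measured on the cards, and among the miRNAs miR-223 and miR-142-3p were high in both populations. Markers of other cell types were read from short lists, of which 0 of 3 erythroid, 0 of 7 stromal, muscle and endothelial, 2 of 7 epithelial and 2 of 5 lymphoid miRNAs were named and under the limit. MiR-486, an erythroid miRNA, was undetermined in promyelocytes and had a CT of 31.46 in myelocytes. The stromal miR-143 and miR-145 were undetermined in promyelocytes and had a CT of 34.52 and 32.51 in myelocytes. Of the other named miRNAs on that list, miR-1 had 33.41 and 34.55, miR-199a-3p had 32.76 and 32.06, and miR-133b was undetermined in both. Of the epithelial list, miR-200c had a CT of 31.22 and 28.84 and miR-203 29.39 and 30.45. In the same list miR-200b was undetermined in promyelocytes and at 34.24 in myelocytes, and miR-429 had 34.72 and 32.57, so that 3 of the 4 named had a lower CT in myelocytes. Among lymphoid markers, miR-181a had 28.97 and 29.22, beside the change of 3.19 in miR-150. The part of other cells in these values was not tested.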

How the data were processed

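TaqMan rodent miRNA cards (A and B, v2.0) were run by the authors on an ABI 7900HT instrument from 100 ng of RNA per sample, and CT values called in SDS and RQ Manager were deposited without normalization, an undetermined well at 40. The CT is on a log scale, and at full efficiency 1 cycle is 2-fold. Assays were named by a unique match of cytoplasmic and nuclear CT to the study's printed fraction list within 0.0005 cycles (246 assays), or, within 0.002, of whole cell CT differences to its printed list of whole cell changes (23 assays). That list is headed log2, but its values follow a straight line against the CT differences with the slope of a logarithm of base 1.5, so it was matched through that line, and changes here are plain log2 values. Changes are CT differences less the mean difference of the last 3 assays of card B (-0.01), which is also the constant behind that second list. Assays under 40 numbered 259 in promyelocytes and 285 in myelocytes. Each CT is 1 well of 1 sample, so no error and no test could be given.

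Named miRNAs are members of family, cluster and marker lists, the 10 highest and 10 lowest changes, the 10 lowest CT values per sample, both arms of a hairpin, shared seeds and miRNAs beside the limit. The miRNAs and lists were chosen with earlier results of these data known. Alternatives changed the scaling, the CT limit, the fold limit, the fold per cycle, the undetermined value and the naming. The calling steps were tested on simulated data. Tables were handled with pandas 2.3.3 and numpy 2.4.6 under Python 3.11.15, coefficients came from scipy 1.17.1, and plots from matplotlib 3.10.9. The mRNA arrays and cell lines were not analysed here.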

Additional observations from a re-analysis of the deposited data

Results flagged for a closer look

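MiR-494 changed by -2.39 in whole cell RNA, while its unscaled cytoplasmic CT difference was 1.55. Less the median of the 112 miRNAs in each RNA, the values were -3.14 and 0.41, and scaled to the 3 assays of card B the cytoplasmic difference was -0.12, so the opposite direction held without scaling and after centring only. The difference between the RNAs was not tested, since each stage has 1 sample of each.

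An assay of card B that received no name and entered no count of miRNAs changed by -1.99. Its whole cell CT was 26.58, 26.74, 28.74 and 28.24 at the 4 stages from LSK cells to granulocytes, and its cytoplasmic CT was 26.70 in promyelocytes and 28.31 in myelocytes. The other 6 unnamed assays under 30, apart from the 3 used for scaling, changed by -0.31 to 0.74.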

How the results depend on the processing

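No paired analysis was possible because each stage has 1 sample. Against 14 of 112, lower miRNAs numbered 29 with the mean scaling, 32 with each card centred, 8 of 76, 26 of 154 and 36 of 200 at CT limits of 28, 32 and 35, 9 of 89 where both samples had to be under 30, and 26 and 5 at fold limits of 1.5 and 3. Against 47 of 112, higher miRNAs numbered 29 with each card centred and 88 of 200 at a CT limit of 35. The median of 0.75 became 0.23 with the mean scaling, 0.081 with each card centred, 0.60 with both samples under 30 and 0.59 over all assays, named or not. By card, an alternative added after the data were seen, card A gave 42 higher, 7 lower and a median of 1.06, and card B gave 5 higher, 7 lower and a median of -0.072, which turned the direction. The mean scaling took 14 miRNAs out of the calls and brought 15 in, and centring by card 18 and 18. Neither could turn the sign of a called miRNA, since each shift was smaller than the change that a call needs. The share on the same side in cytoplasmic RNA was 92.9%, 84.8% without centring and, added after the data were seen, 77.7% with both RNAs scaled to the 3 assays. No scaling and undetermined wells at 35 changed no call, and 1.9-fold per cycle took out 2. The causes were not tested. Above 30 cycles, detection limits the values.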

Other observations

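Of the 11 named miRNAs listed for the Sfmbt2 intron cluster, a large rodent cluster expressed in the placenta and stem cells, only miR-467a and miR-467a* had a CT under 30 in promyelocytes or myelocytes, with changes of -1.19 and 0.24. MiR-466d-3p was undetermined in promyelocytes and in myelocytes but had a CT of 27.55 in LSK cells and 25.56 in granulocytes. MiR-669a had a CT of 31.87 in promyelocytes and was undetermined in myelocytes.

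The 6 miRNAs that the study examined for nuclear location had a median whole cell change of 0.22, or -0.29 with the mean scaling and 0.21 with each card centred. With the 3 assays as the scale, apart from miR-142-3p, each stayed within 2-fold. The CT of miR-709 was 20.75 and 21.03, and that of miR-690 24.90 and 24.70. MiR-706 had 28.61 and 28.51 in whole cell RNA but 26.62 and 28.88 in nuclear RNA.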
